A study of Sus scrofa with 27 samples.

Results

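The Toll-like receptors and their adaptors were followed in pig lungs during ex vivo lung perfusion (EVLP), in which a donor lung is ventilated and perfused on a machine outside the body. The members were chosen by name: 10 gene names were looked up (TLR2, TLR3, TLR4, TLR5, TLR7, TLR8, TLR9, MYD88, CD14 and IRAK3), and 8 of the 31908 genes in the count table bore one of them. TLR7 and TLR9 had no gene of that name in the table. One unnamed gene, ENSSSCG00000011436, carried the symbol TLR9 in a reference table and is given beside the members, outside the rule. Each of the 8 members had over 10 counts in its highest library, from 483 for TLR5 to 11283 for TLR4.

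Lungs of Large-White pigs, taken after cardiac arrest of the donor, were biopsied at 0h, just before EVLP, and again at 6h and 12h. The Gold Standard group (GS, 5 pigs) had part of the Steen perfusate replaced at intervals, and the Pediatric Dialysis group (PD, 4 pigs) had a hemodialysis membrane on the circuit. Both groups shared the acellular Steen solution with methylprednisolone, a glucocorticoid, and with cefuroxime and heparin, so no sample after 0h was free of glucocorticoid. RNA sequencing of the 27 biopsies asked how the genes changed from the same lung at 0h within each group, and whether these changes differed between the groups. The pigs served as replicates. The PD lungs had also been used in an earlier study and the GS lungs had not, and RNA came by either of a pair of extraction kits that are not given per sample.

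Toll-like receptors are innate immune sensors that bind microbial products and molecules released from damaged cells. TLR2, TLR4 and TLR5 sit mainly at the cell surface and sense lipoproteins, lipopolysaccharide and flagellin, whereas TLR3, TLR8 and TLR9 sense nucleic acids in endosomes. CD14 hands lipopolysaccharide to TLR4, the adaptor MYD88 carries the signal of every Toll-like receptor except TLR3 towards NF-kB, and IRAK3 (IRAK-M), found mainly in monocytes and macrophages, restrains it. In the lung these genes are used by alveolar macrophages and recruited leukocytes as well as by epithelium and endothelium, and in a biopsy fewer cells of a type and less RNA per cell cannot be told apart.

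Total counts ranged from 26335584 to 67522703 in the GS libraries and from 14650700 to 21820935 in the PD libraries, with no overlap. In counts-per-million (CPM), 3 counts at these depths came to at most 0.104 in GS and 0.324 in PD, below every member in every library. Of the marker lists, 4 of 5 alveolar type 2 cell genes were in the table, and their summed level of 4872 to 14164 CPM in GS and 15167 to 87309 CPM in PD marked both as lung. The library of PD pig 2 at 12h stood apart: its mean correlation with the other PD libraries at 12h was 0.859, against 0.897 or more for every other library within its own group and time. Mitochondrial transcripts made up 1.65% of its counts, the lowest share in PD, and it had the highest sums of the PD libraries for 6 of the 11 marker lists: 7040 CPM for macrophages and monocytes, 1519 for neutrophils, 105 for plasmacytoid dendritic cells, 358 for red blood cells and 3030 and 87309 for alveolar type 1 and type 2 cells. Changes in PD at 12h are given with and without this library. The 0.897 belonged to PD pig 4 at 0h, the baseline for every change of that pig. Among the PD libraries at 0h it had the highest sums for alveolar type 2 cells (76733 CPM), neutrophils (1256) and red blood cells (236). Its sums for macrophages and monocytes (3530) and alveolar type 1 cells (732) were the lowest there.

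In GS the co-receptor CD14 rose at 6h and at 12h, TLR4 rose to a smaller degree at 12h, and TLR3 and TLR8 fell at both times, while TLR2, MYD88, IRAK3 and TLR5 did not pass the test. The changes of CD14 at both times and of TLR8 at 12h kept an adjusted p under 0.05 in every fit run, and those of TLR4, of TLR3 and of TLR8 at 6h did not. In PD no member passed the test at either time in edgeR's fit of that group, while at 12h DESeq2 called 1 member (16.5% of all genes) and one fit of all libraries 4 (18.5% of all genes). The starting regions of the 4 members that passed in GS at 12h are shown first, since they carried the changes; each holds 275 bases, 250 before the start of the gene in the RefSeq annotation of Sscrofa11.1 and 25 from it on, read 5′ to 3′ on the gene's strand, and capitals mark motif matches. CD14 lies on the minus strand, and its window is chr2:142349662-142349936, which does not reach the start of the deposited gene model. Capitals there are the NF-kB motif GGANTTTCC, read on the opposite strand, and the AP-1 motif TGANTCA.
CD14: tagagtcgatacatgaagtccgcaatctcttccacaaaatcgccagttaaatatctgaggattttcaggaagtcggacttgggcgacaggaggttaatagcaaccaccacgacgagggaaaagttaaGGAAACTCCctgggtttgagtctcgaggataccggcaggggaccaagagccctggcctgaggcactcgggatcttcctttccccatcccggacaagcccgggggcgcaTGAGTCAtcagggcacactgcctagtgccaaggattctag
TLR4 lies on the plus strand, window chr1:258044360-258044634, with the PU.1 motif GAGGAA on the opposite strand in capitals.
TLR4: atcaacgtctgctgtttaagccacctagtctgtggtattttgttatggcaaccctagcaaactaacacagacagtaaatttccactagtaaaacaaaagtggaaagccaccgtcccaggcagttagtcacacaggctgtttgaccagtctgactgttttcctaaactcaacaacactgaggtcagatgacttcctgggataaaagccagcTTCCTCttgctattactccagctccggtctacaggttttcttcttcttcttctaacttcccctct
TLR3 lies on the plus strand, window chr15:46966012-46966286, with the interferon-stimulated response element (ISRE) GAAANNGAA on the opposite strand in capitals.
TLR3: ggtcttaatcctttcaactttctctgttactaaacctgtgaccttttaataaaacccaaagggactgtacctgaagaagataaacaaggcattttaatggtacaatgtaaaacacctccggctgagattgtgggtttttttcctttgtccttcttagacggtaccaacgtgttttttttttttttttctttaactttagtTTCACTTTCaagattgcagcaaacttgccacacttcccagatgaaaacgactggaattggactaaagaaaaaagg
TLR8 lies on the plus strand, window chrX:9551034-9551308, which does not reach the start of the deposited gene model, with GAGGAA in capitals.
TLR8: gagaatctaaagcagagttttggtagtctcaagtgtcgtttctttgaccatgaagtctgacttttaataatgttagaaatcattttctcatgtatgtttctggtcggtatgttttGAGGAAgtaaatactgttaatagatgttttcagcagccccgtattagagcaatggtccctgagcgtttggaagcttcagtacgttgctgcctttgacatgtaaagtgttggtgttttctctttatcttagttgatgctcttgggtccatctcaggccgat

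Searched on both strands, GGANTTTCC stood in 1.47% of the windows of 19559 protein-coding genes, and CD14 was the member that held it. TGANTCA stood in 5.7% of all windows and among the members in that of CD14. The ISRE letters, in 7.36% of all windows, were found in those of TLR3, TLR5 and MYD88, and GAGGAA, in 23.8%, in those of TLR2, TLR4, TLR8 and MYD88. The C/EBP letters TTGCNNAA, in 8.91% of all windows, were in none of the members' windows. A match describes the letters in the window and is neither a site nor a cause. The NF-kB and ISRE letters were shortened by 1 base after matches had been seen, so their shares do not measure how rare these matches are. The RefSeq start lay 105 bases from the start of the deposited gene model for CD14, 222 for TLR3, 1244 for IRAK3, 1732 for TLR8, 12880 for MYD88 and 18480 for TLR2, and at the same base for TLR4 and TLR5. The windows of CD14, IRAK3, TLR8, MYD88 and TLR2 do not hold the start of the gene model as counted.

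**Figure D1:**
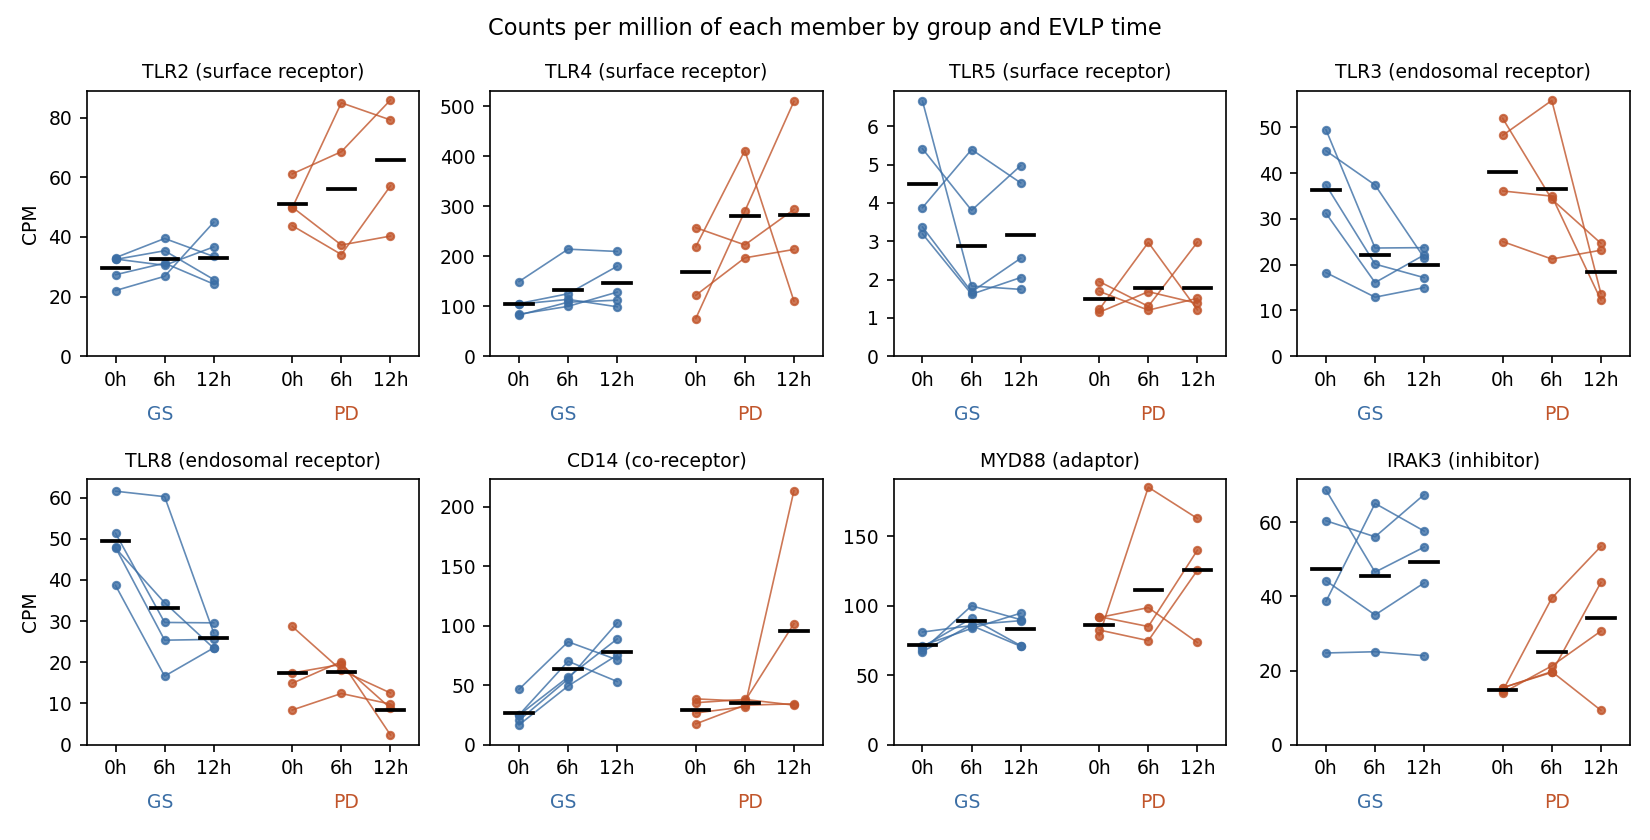
The CPM level of each of the 8 members at 0h, 6h and 12h in GS (blue, 5 pigs) and PD (orange, 4 pigs). Thin lines join the samples of a pig and black bars are group means; CD14 was higher at 6h and 12h than at 0h in all 5 GS pigs, while the PD pigs spread from 33.3 to 214 CPM at 12h.

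CD14 (ENSSSCG00000014369, chr2:142346358-142349581, minus strand) had 24.9, 20.5, 46.6, 16.7 and 25.03 CPM at 0h in GS pigs 9, 17, 44, 55 and 77. At 6h the same pigs had 56.9, 55.2, 86.5, 49.4 and 70.2 CPM, and at 12h 88.9, 102, 71.4, 75.4 and 53.1 CPM. Every 6h and 12h sample lay above every 0h sample in GS, a pattern whose share over all genes is not given. The fold change was 2.43 at 6h (log2 1.28 ± 0.22 SE, edgeR quasi-likelihood adjusted p = 0.00159) and 3.02 at 12h (log2 1.60 ± 0.22 SE, adjusted p = 0.000292). It was the 1 member called at each time, a call being an adjusted p under 0.05 together with a fold change of at least 2; of all 18594 genes tested, 11.1% were called at 6h and 15.7% at 12h. In PD pigs 2, 3, 4 and 5 the CD14 values were 26.6, 17.5, 35.3 and 38.5 CPM at 0h, 31.9, 33.2, 38.1 and 36.6 CPM at 6h, and 214, 34.4, 33.3 and 102 CPM at 12h. The PD samples overlapped between 0h and 6h, and at 12h pigs 2 and 5 were high and pigs 3 and 4 were not. The log2 change was 0.31 ± 0.50 (SE) at 6h (adjusted p = 0.823) and 1.45 ± 0.53 at 12h (adjusted p = 0.123). Without the library of pig 2 at 12h the latter was 0.77 (adjusted p = 0.129). It was 1.49 by DESeq2 (adjusted p = 0.0286) and 1.45 in one fit of all libraries (0.0158), both called.

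None of the 11 macrophage and monocyte markers (CD14 not among them) was called in GS at 6h or at 12h. At 12h 1 of the 11, SIGLEC1, passed the adjusted p alone, at -0.90 log2 (0.0266). Their summed level was 4614 to 9005 CPM at 0h, 3606 to 9660 CPM at 6h and 4890 to 7986 CPM at 12h in GS, with overlap between times. The part of these cells in the CD14 change was not tested.

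TLR4 (ENSSSCG00000005503, chr1:258044610-258059004, plus strand), the lipopolysaccharide receptor, had 105, 149, 82.2, 84.1 and 104 CPM at 0h in GS pigs 9, 17, 44, 55 and 77. At 12h these pigs had 180.1, 209.7, 112, 128 and 98.9 CPM. Pig 77 was the exception to a higher level, and the samples of 0h and 12h overlapped. The paired log2 change was 0.29 ± 0.13 (SE) at 6h (adjusted p = 0.105), higher in 5 of 5 pigs, and 0.42 ± 0.13 at 12h (adjusted p = 0.0208), under the fold threshold. The 12h value no longer passed without pig 17, 44 or 55 (adjusted p of 0.0611, 0.0688 and 0.0875), without the pig block (0.278) or in one fit of all libraries (0.376). PD pigs 2, 3, 4 and 5 had 219, 257, 75.3 and 122 CPM at 0h, 412, 223, 290.3 and 197 CPM at 6h and 110.5, 294, 510.1 and 214 CPM at 12h. Pig 4 was the lowest at 0h and the highest at 12h, and pig 2 went from the highest at 6h to the lowest at 12h. The PD changes were 0.75 ± 0.51 log2 at 6h (adjusted p = 0.641) and 0.74 ± 0.53 at 12h (adjusted p = 0.42), the latter 1.18 without the library of pig 2 at 12h (adjusted p = 0.0501). With each PD pig left out in turn the 12h change ran from 0.13 to 1.15 (adjusted p of 0.0821 to 0.921).

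TLR2 (ENSSSCG00000009002, chr8:75411991-75446850, minus strand), which senses lipoproteins together with TLR1 or TLR6, ranged from 22.03 to 33.1 CPM at 0h, 26.8 to 39.5 CPM at 6h and 24.2 to 44.9 CPM at 12h in GS. Its changes there were 0.13 ± 0.18 log2 at 6h (adjusted p = 0.606) and 0.12 ± 0.18 at 12h (0.606), smaller than the spread between pigs. In PD it ranged from 43.8 to 61.2 CPM at 0h and from 40.3 to 86.0 CPM at 12h, a change of 0.29 ± 0.32 log2 (adjusted p = 0.625), which was 0.29 also without the library of pig 2 (0.518). TLR5 (ENSSSCG00000010885, chr10:19387666-19410024, minus strand), the flagellin receptor, was the member with the fewest counts, 14 to 483 per library. In GS pigs 9, 17, 44, 55 and 77 it had 5.42, 3.88, 3.19, 6.66 and 3.37 CPM at 0h and 3.81, 5.39, 1.62, 1.83 and 1.68 CPM at 6h. It was lower in 4 of 5 pigs and higher in pig 17, with a log2 change of -0.83 ± 0.30 (adjusted p = 0.0536). Without pig 17 the change was -1.15 (adjusted p = 0.0174) and passed both thresholds. Over the fits that left out each GS pig in turn the 6h change ran from -1.15 to -0.52 (adjusted p up to 0.193). At 12h it was -0.66 ± 0.30 (adjusted p = 0.0985). In PD the TLR5 changes were 0.27 ± 0.49 log2 at 6h (adjusted p = 0.845) and 0.20 ± 0.49 at 12h (0.838), the latter 0.20 without the library of pig 2 (0.805).

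Both endosomal receptors among the members were lower at 12h in every GS pig, as were 19.7% of all genes tested. The gene with the reference symbol TLR9, outside the rule, did not share this fall. Its mean log2 change over the GS pigs was 0.42 at 6h, higher in 4 of 5 pigs, and 0.34 at 12h, higher in 3 of 5. Over the PD pigs it was -0.18 at 6h and 0.22 at 12h. TLR3 (ENSSSCG00000015801, chr15:46966040-47058734, plus strand), the sensor of double-stranded RNA, had 49.5, 44.9, 18.3, 37.4 and 31.2 CPM at 0h in GS pigs 9, 17, 44, 55 and 77. The 6h values were 23.6, 37.4, 12.9, 20.1 and 16.1 CPM and the 12h values 23.7, 21.5, 14.999, 17.2 and 22.1 CPM. Each pig was lower at both later times, yet the samples overlapped: pig 44 was low at every time, and pig 17 at 6h stood above pig 77 at 0h. The log2 change was -0.74 ± 0.18 at 6h (adjusted p = 0.00845) and -0.83 ± 0.18 at 12h (adjusted p = 0.00319), under the fold threshold. Without the pig block the adjusted p was 0.143 at 6h and 0.053 at 12h, and in one fit of all libraries 0.0867 and 0.0443. PD pigs 2, 3, 4 and 5 had 48.3, 52.0, 25.05 and 36.1 CPM at 0h, 55.9, 34.3, 21.2 and 35.0 CPM at 6h and 13.7, 24.7, 23.2 and 12.3 CPM at 12h. All 4 PD pigs were lower at 12h than at 0h, with no overlap between these times, a pattern whose share over all genes is not given. The change of -1.08 ± 0.39 log2 did not pass (adjusted p = 0.118), where 24.5% of all genes reached an unadjusted p under 0.05. It was -0.83 without the library of pig 2 at 12h (adjusted p = 0.0974), and -1.07 in one fit of all libraries (0.015), where it was called. At 6h the PD change was -0.13 ± 0.38 (adjusted p = 0.904).

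TLR8 (ENSSSCG00000012118, chrX:9549552-9616759, plus strand), a sensor of single-stranded RNA, had 38.7, 61.5, 51.3, 47.7 and 47.9 CPM at 0h in GS pigs 9, 17, 44, 55 and 77. At 6h it had 16.6, 60.2, 29.7, 34.5 and 25.4 CPM, and at 12h 23.5, 27.1, 29.6, 23.4 and 25.6 CPM. At 6h pig 17 alone stayed near its starting level. At 12h every sample lay below every 0h sample, a pattern whose share over all genes is not given. The change was -0.66 ± 0.19 log2 at 6h (adjusted p = 0.0206) and -0.94 ± 0.19 at 12h (adjusted p = 0.00237), just under the fold threshold. The 6h value no longer passed without pig 9, 44 or 77 (adjusted p of 0.0633, 0.0881 and 0.0881), without the pig block (0.169) or in one fit of all libraries (0.199). In PD pigs 2, 3, 4 and 5 it had 14.9, 28.7, 8.43 and 17.4 CPM at 0h, 20.2, 18.1, 12.4 and 19.5 CPM at 6h and 2.37, 12.6, 9.86 and 8.86 CPM at 12h. Pig 4 was low at 0h and higher at 12h, and pig 2 at 12h rested on 22 counts. The PD change was 0.14 ± 0.45 log2 at 6h (adjusted p = 0.917) and -1.02 ± 0.47 at 12h (adjusted p = 0.206), or -0.63 without pig 2 at 12h (adjusted p = 0.205). In one fit of all libraries it was called, at -1.01 (adjusted p = 0.048). TLR3 overlaps FAM149A and CYP4V2, and TLR8 overlaps PRPS2, on the same strand and with more counts, so how reads were shared between them could not be checked. Beside these changes in GS at 12h, 0 of 3 plasmacytoid dendritic cell markers were above 0 and 2 were lower past the adjusted p (median -0.77 log2), and 0 of 5 T and NK lymphocyte markers were above 0 and 3 were lower (median -0.60). Of the 5 B lymphocyte markers 4 were lower past the adjusted p (median -0.68). The airway list had 2 of 2 tested genes lower past the adjusted p (median -1.11). The neutrophil list had 4 of 5 genes above 0 (median 0.31) and 1 lower past the adjusted p. Of the endothelial markers 4 of 7 were above 0 (median 0.16), and of the macrophage and monocyte markers 4 of 11 (median -0.03). Above 0 were 3 of 4 genes each for alveolar type 1 cells (median 0.19), alveolar type 2 cells (0.25) and fibroblasts (0.06). Both red blood cell genes were below 0 (median -0.97). The summed levels of the plasmacytoid list were 16.2 to 37.0 CPM at 12h against 27.99 to 48.2 CPM at 0h, and those of the T and NK list 103 to 212 CPM against 201 to 297 CPM, summed over 6 genes of which 5 were tested. In PD at 12h, with the library of pig 2 included, 0 of 5 B lymphocyte, 0 of 5 T and NK and 0 of 5 neutrophil markers were above 0. Their medians were -1.74, -0.55 and -0.78 log2. Of the plasmacytoid markers 1 of 3 was above 0 there (median -0.29), and of the endothelial markers 5 of 7 (median 0.13). Of the macrophage and monocyte markers 3 of 11 were above 0 (median -0.20), and of the alveolar type 1 markers 3 of 4 (median 0.23). The alveolar type 2 and fibroblast lists each had 1 of 4 above 0 (medians -0.47 and -0.42). The airway list had 1 of 2 (median 0.21) and the red blood cell list 0 of 2 (median -1.90). The part of these cells was not tested.

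MYD88 (ENSSSCG00000011251, chr13:22964071-22983109, plus strand) ranged in GS from 67.1 to 81.1 CPM at 0h, from 83.7 to 99.98 CPM at 6h and from 70.8 to 94.7 CPM at 12h. All 5 pigs were higher at 6h and the samples of 0h and 6h did not overlap, a pattern whose share over all genes is not given. The change of 0.30 ± 0.12 log2 did not pass (adjusted p = 0.0736), where 28.5% of all genes had an adjusted p under 0.05. At 12h it was 0.18 ± 0.12 (adjusted p = 0.256). In PD pigs 2, 3, 4 and 5 the 12h values of 73.6, 140.0, 163 and 126 CPM stood against 91.6, 92.2, 78.5 and 82.6 CPM at 0h. Pig 2 was lower and the other 3 were higher, a change of 0.48 ± 0.34 log2 (adjusted p = 0.417), or 0.68 without the library of pig 2 at 12h (0.123). MYD88 overlaps DLEC1 on its own strand and ACAA1 on the other.

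IRAK3 (ENSSSCG00000000475, chr5:30525948-30609922, plus strand) showed no shift in GS, with 38.6, 60.4, 24.7, 44.2 and 68.7 CPM at 0h and 57.6, 67.5, 24.01, 43.7 and 53.3 CPM at 12h in pigs 9, 17, 44, 55 and 77. Opposite moves between pigs left a log2 change of -0.07 ± 0.16 at 6h (adjusted p = 0.768) and 0.01 ± 0.16 at 12h (0.979). In PD pigs 2, 3, 4 and 5 it had 15.3, 15.4, 14.5 and 13.96 CPM at 0h, 19.7, 19.5, 39.6 and 21.3 CPM at 6h and 9.28, 43.8, 53.5 and 30.6 CPM at 12h. All 4 PD pigs were higher at 6h with no overlap with 0h, a pattern whose share over all genes is not given. At 12h pig 2 alone had gone below its 0h level. The change was 0.66 ± 0.42 log2 at 6h (adjusted p = 0.629) and 1.02 ± 0.43 at 12h (adjusted p = 0.17). Without the library of pig 2 at 12h it was 1.42 at 12h (adjusted p = 0.00998), which passed both thresholds, as did 26.2% of all genes without that library. In one fit of all libraries it was 1.03 (adjusted p = 0.0271).

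**Figure D2:**
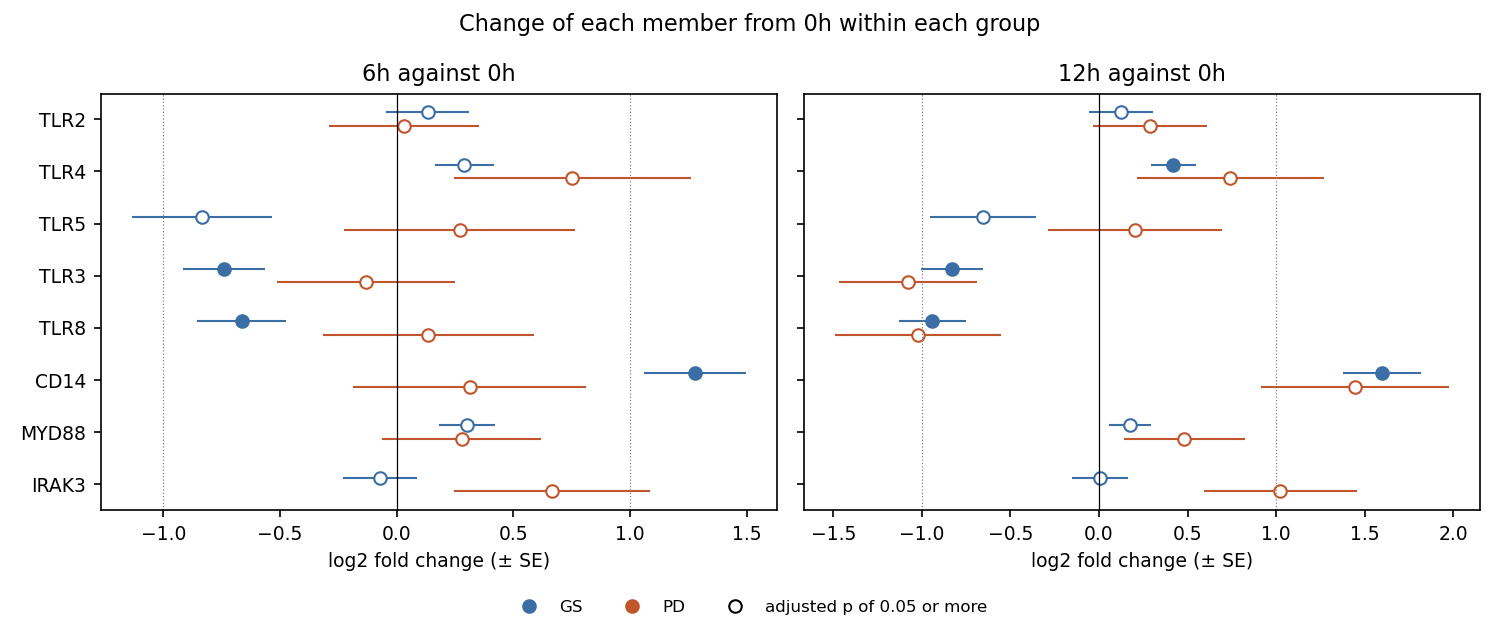
The log2 fold change from 0h of each member at 6h (left) and 12h (right) in GS (blue) and PD (orange), with SE bars; filled points have an adjusted p under 0.05 and dotted lines mark a fold change of 2. CD14 in GS, at 1.28 and 1.60, is the point that is filled beyond a dotted line.

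Counted over the 8 members, 1 was called in GS at 6h and 1 at 12h, and 3 and 4 passed the adjusted p alone, against 28.5% and 38.4% of all genes. The members' median log2 change was 0.03 at 6h and 0.07 at 12h in GS, beside -0.05 and -0.08 over all genes tested. In PD 0 of 8 were called at 6h, where 0.142% of 15545 genes were called by edgeR, and 0 at 12h, where 5.98% were. At an unadjusted p under 0.05, which 9.41% of all genes reached at 6h and 24.5% at 12h, the members' count in PD was 0 and 3 (TLR3, CD14 and IRAK3), and DESeq2 called 0 and 1 (CD14), beside 2.75% and 16.5% of all genes. A fit of all 27 libraries, which pooled the spread of GS and PD, called 4 members in PD at 12h (TLR3 and TLR8 lower, CD14 and IRAK3 higher), beside 18.5% of all genes. The spread between pigs, as edgeR's biological coefficient of variation, came to 0.259 for GS against 0.489 for PD. Between 6h and 12h edgeR called 0 members in GS and 0 in PD, where 0% of all genes were called, DESeq2 also called 0 members (0.0108% of all genes in GS and 1.61% in PD), and at an unadjusted p under 0.05 the counts were 0 in GS (4.74% of all genes) and 2 in PD (TLR3 and TLR8, 10% of all genes).

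Whether the changes differed between PD and GS was tested on the regularized log (rlog) change of each pig by a two-sided exact Wilcoxon test of 5 against 4 pigs, in which the smallest possible p is 0.0159. At 6h CD14 had rlog changes of 0.78, 0.89, 0.62, 0.97 and 0.97 in GS pigs 9, 17, 44, 55 and 77, and of 0.21, 0.53, 0.05 and -0.03 in PD pigs 2, 3, 4 and 5. Every PD pig lay below every GS pig, a difference of -0.66 ± 0.14 (SE) on the rlog scale (exact p = 0.0159, adjusted p = 0.508), and 3.13% of all genes were likewise without overlap. It was the 1 member at an unadjusted p under 0.05 at 6h, a level that 5.94% of 17884 genes reached. At 12h 0 members reached it, against 3.95% of all genes, and CD14 changes overlapped, from 0.44 to 1.49 in GS and from -0.05 to 2.13 in PD (exact p = 0.73). The change of IRAK3 was larger in PD on average, with a difference of 0.43 at 6h (p = 0.111, exact) and 0.57 at 12h (0.286, exact), with overlap between the groups at both times. Without PD pig 2 the 12h difference of IRAK3 was 0.88 (exact p = 0.0357, adjusted p = 0.215), and the other 3 PD pigs, at 0.71 to 1.19, lay above every GS pig; 16.6% of all genes were at an unadjusted p under 0.05 in that comparison. TLR8 differed by 0.51 at 6h (exact p = 0.0635) and by 0.01 at 12h (0.905, exact). Both IRAK3 and TLR8 began lower in PD than in GS. IRAK3 had 13.96 to 15.4 CPM at 0h in PD and 24.7 to 68.7 CPM in GS. At 12h it had 9.28 to 53.5 CPM in PD and 24.01 to 67.5 CPM in GS. The part of the starting levels in these differences of change was not tested.

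**Figure D3:**
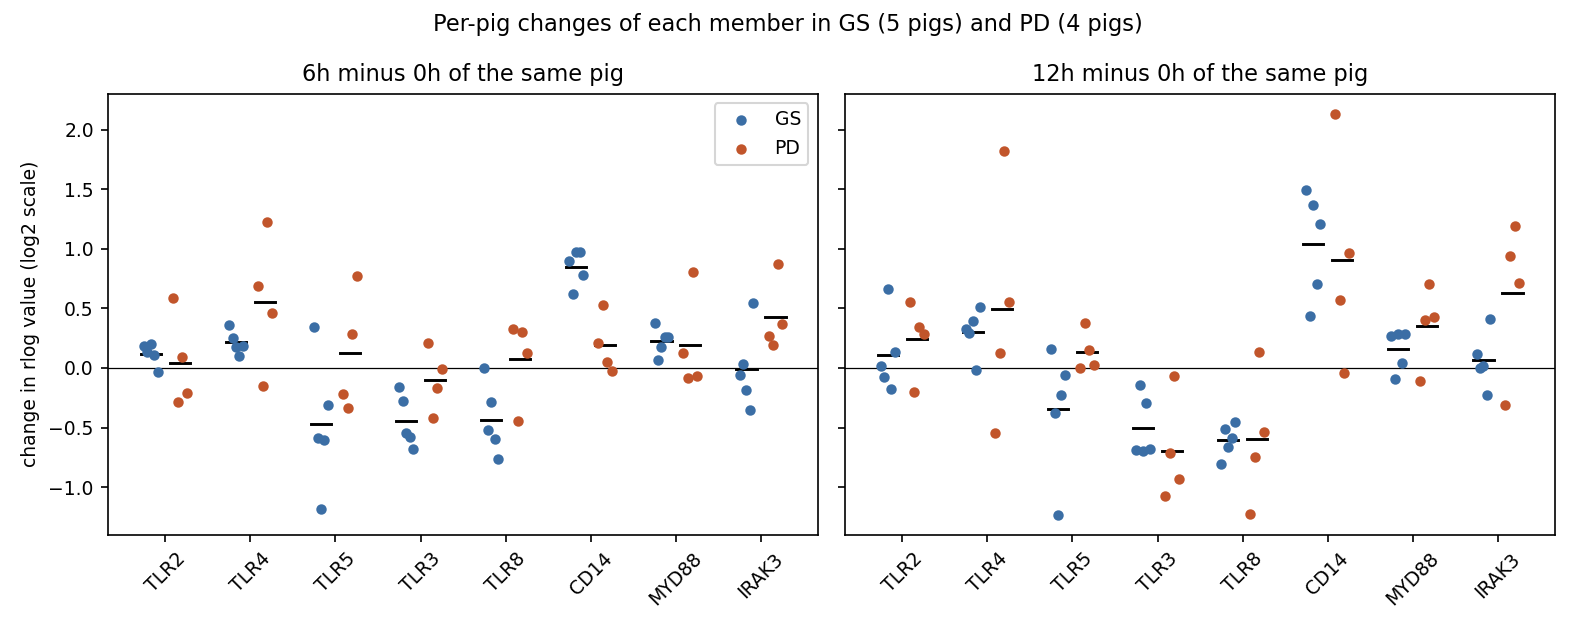
The change of each pig from its own 0h sample, in rlog units on a log2 scale, at 6h (left) and 12h (right) for the 8 members in GS (blue, 5 pigs) and PD (orange, 4 pigs), with means as black bars. CD14 at 6h is the member whose PD points all lie below its GS points, and at 12h the groups overlap for every member.

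A group-by-time term fitted by edgeR, on counts of all 27 libraries with each pig as a block, called 0 of 8 members at 6h and 0 at 12h, where 0% of all genes were called, and DESeq2 called 0 as well (0.0391% and 0.0839% of all genes). At an unadjusted p under 0.05 the counts were 0 (5.85% of all genes) and 1 (5.98%). That 1 was IRAK3 at 12h, with a difference of 0.99 ± 0.43 log2, higher in PD (adjusted p = 0.804), which came to 1.401 without the library of PD pig 2 at 12h (0.0872). With PD pig 2 left out at all times it was 1.46 (adjusted p = 0.0496) and was called, as were 153 of all genes tested. CD14 differed by -0.97 ± 0.52 log2 at 6h (adjusted p = 0.783) and -0.18 ± 0.54 at 12h (0.982), the latter -0.83 without the library of PD pig 2 at 12h (0.222). TLR5 differed by 1.09 ± 0.54 at 6h (adjusted p = 0.783), and by 0.65 to 1.41 when each pig was left out in turn (adjusted p of 0.251 to 0.964). IRAK3 and TLR5 both began lower in PD at 0h, and the part of this in their group-by-time differences was not tested.

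Before perfusion 4 of the 8 members already differed between the groups, 1 higher and 3 lower in PD, at an adjusted p under 0.05 that 40.6% of 16477 genes passed. TLR2 had 49.8, 50.02, 61.2 and 43.8 CPM in PD pigs 2, 3, 4 and 5 and 32.6, 33.1, 27.3, 22.03 and 32.5 CPM in GS pigs 9, 17, 44, 55 and 77, a log2 difference of 0.84 ± 0.20 (adjusted p = 0.00485). TLR5 was lower in PD, at 1.69, 1.95, 1.15 and 1.22 CPM, by -1.54 ± 0.35 log2 (adjusted p = 0.0042). The values of TLR8 given above for 0h differed by -1.47 ± 0.31 log2 (adjusted p = 0.00259) and those of IRAK3 by -1.63 ± 0.28 (adjusted p = 0.000769). For each of these 4 genes the PD and GS pigs did not overlap, where every PD pig lay below every GS pig in 17.9% of all genes and above in 16.2%. TLR4 (0.72, adjusted p = 0.0983), TLR3 (0.19, 0.633), CD14 (0.18, 0.674) and MYD88 (0.31, 0.129) did not pass. Without PD pig 4 TLR4 did, at 0.97 (adjusted p = 0.0114). Its difference ran from 0.44 to 0.97 when each pig was left out in turn (adjusted p up to 0.312). The gene with the reference symbol TLR9, an endosomal sensor of unmethylated DNA, had 2.69 to 3.34 CPM in PD and 7.002 to 12.3 CPM in GS, a difference of -1.73 ± 0.26 (adjusted p = 0.000299).

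These differences were present before any dialysis, and group, library depth and collection of the lungs cannot be told apart. Of the 11 macrophage and monocyte markers, 3 were lower in PD at 0h (among them CD68 by -1.89 and CSF1R by -1.63 log2) and 1, AIF1, was higher by 2.09. Their summed level was 3530 to 4612 CPM in PD and 4614 to 9005 CPM in GS. The red blood cell markers, 2 of 3 in the table, summed to 51.3 to 236 CPM in PD and 0.355 to 10.3 CPM in GS, and the alveolar type 2 markers to 25798 to 76733 CPM against 6379 to 8943 CPM, where SFTPC was higher in PD by 3.56 log2, SFTPB was lower by -1.35 and the other 2 genes did not pass. The neutrophil markers summed to 624 to 1256 CPM in PD against 150 to 434 CPM in GS, though 2 of these 5 genes were higher in PD past the test (S100A8 by 3.27 and S100A12 by 2.29 log2), CSF3R was lower by -1.36, and the median of the list was -0.13. The endothelial markers summed to 1280 to 1777 CPM against 1957 to 2853 CPM, with 3 of 7 genes lower and 1 higher past the test. These sums of 5 of the 11 marker lists did not overlap between the groups. The part of these in the members' differences was not tested.

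Levels between genes were compared per length. They were set as RPKM (CPM divided by the kilobases of RefSeq exon). In GS at 0h TLR4 stood at 29.3 ± 7.56 RPKM (SD, n = 5), CD14 at 17.02 ± 7.40, TLR3 at 11.7 ± 3.96, IRAK3 at 7.79 ± 2.88, TLR8 at 6.53 ± 1.09 and TLR2 at 5.89 ± 0.956. Each of these overlapped its neighbour in the order. TLR5, at 0.870 ± 0.288 RPKM, lay below all others without overlap. MYD88 came out highest, at 79.8 ± 6.26 RPKM, but its RefSeq model is 897 bases, of which 882 are coding, so the value is set too high to the extent that reads from untranslated ends were counted. In PD at 0h TLR4 stood at 47.0 ± 23.5 RPKM (SD, n = 4), CD14 at 18.8 ± 6.02, TLR3 at 13.04 ± 3.96 and TLR2 at 10.2 ± 1.45, each overlapping the next. IRAK3 followed at 2.44 ± 0.113 and TLR8 at 2.29 ± 1.12 RPKM, both below TLR2 without overlap, and TLR5 was again last at 0.290 ± 0.0741. In GS TLR2 stood above TLR8 at 6h (6.53 against 4.40 RPKM) and 12h (6.59 against 3.41 RPKM), with overlap at 6h. The order depended on the length used. By longest transcript TLR2 (6.87 RPKM) and TLR8 (6.84 RPKM) changed places in GS at 0h, and by coding length IRAK3 (21.0 RPKM) and TLR8 (14.9 RPKM) stood above TLR3 (13.4 RPKM) in GS at 0h. By exon length CD14 stood above TLR4 in GS at 6h (40.5 ± 9.48 against 36.9 ± 13.1 RPKM) and at 12h (49.8 ± 11.9 against 40.7 ± 13.2 RPKM). The samples overlapped at both times.

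**Figure D4:**
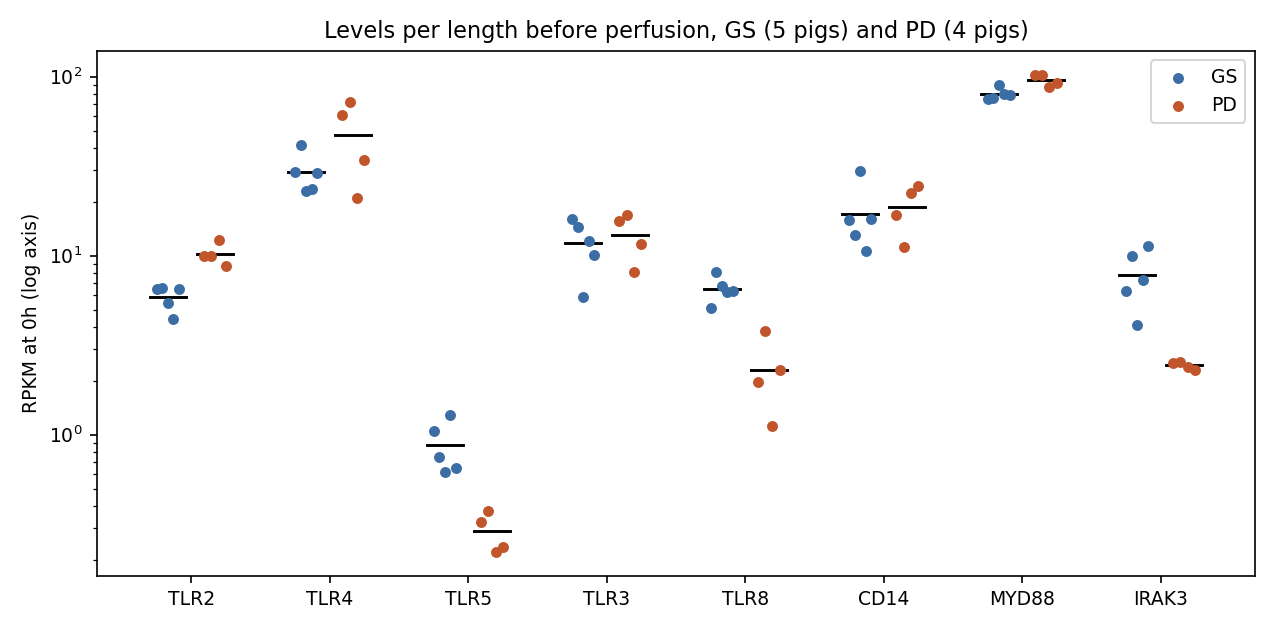
RPKM (CPM per kilobase of exon) at 0h for the 8 members in GS (blue, 5 pigs) and PD (orange, 4 pigs) on a log axis, with means as black bars. TLR2 is higher and TLR5, TLR8 and IRAK3 are lower in PD, with no overlap between the groups.

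Other genes of the pathway were taken from a list of 57 names, of which 53 were in the table and tested. In GS 7 were called higher and 2 lower at 6h, and 6 higher and 3 lower at 12h. These 9 of 53 at each time stood beside 11.1% of all genes called at 6h and 15.7% at 12h. The list had a median log2 change of 0.01 and 0.04 beside -0.05 and -0.08 over all genes. By role, the inhibitors (10 genes) had 3 called higher at each time. NFKBIA, which holds NF-kB in the cytoplasm, rose by 1.77 ± 0.29 log2 at 6h (adjusted p = 0.00129) and 2.01 ± 0.30 at 12h (0.0004). TNFAIP3 (A20), a deubiquitinating inhibitor of NF-kB signalling, rose by 1.50 ± 0.45 at 6h (adjusted p = 0.0251) and 1.97 ± 0.46 at 12h (0.00564). Its partner TNIP1 rose by 1.11 ± 0.22 and 1.41 ± 0.22 (0.00348 and 0.000588). The 6h call of TNFAIP3 was lost without pig 44, 55 or 77, at adjusted p of 0.0994, 0.0831 and 0.1, and with no filter on low counts (0.0952).

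Among the 18 kinases and ligases 3 were called higher at 6h and 2 at 12h. MAP3K8 (TPL2), a kinase upstream of ERK, rose by 1.61 ± 0.32 log2 at 6h (adjusted p = 0.00338) and 1.58 ± 0.32 at 12h (0.00244). PELI1, a ubiquitin ligase of the IRAK complexes, rose by 1.30 ± 0.19 and 1.49 ± 0.19 (0.000709 and 0.000198). Of the 8 other receptors and co-receptors in the table none was higher past the test and 2 were called lower. TLR1, a partner of TLR2, fell by 1.39 ± 0.22 on the log2 scale at 6h (adjusted p = 0.000978) and by 1.35 ± 0.22 at 12h (0.000637). TLR10, a receptor prominent in B cells, fell by 1.76 ± 0.42 at 6h (adjusted p = 0.00857) and by 1.57 ± 0.41 at 12h (0.00997), and lost its 12h call without pig 44 (adjusted p = 0.0541). In one fit of all libraries it lost both calls (0.0525 at 6h and 0.0613 at 12h), as it did without the pig block (0.173 and 0.137). Beside TLR10, of the 5 B lymphocyte markers tested, 2 were called lower in GS at each time; their part was not tested. SARM1, a negative regulator among the TIR-domain adaptors, fell by 1.24 ± 0.28 at 12h (adjusted p = 0.00446), and by 0.94 without pig 17, under the fold threshold. It also lost its call without the pig block (adjusted p = 0.0513). Of the 3 listed adaptors in the table, 1 was called higher in GS at each time, and 1 was called lower at 12h. TICAM1 was higher in 4 of 5 GS pigs at each time, by a mean of 1.10 log2 at 6h and 1.11 at 12h.

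In PD 1 pathway gene was called higher at 6h and 5 at 12h, and 0 were called lower, where 0.142% and 5.98% of all genes were called. TNFAIP3 rose by 3.35 ± 0.47 log2 at 6h (adjusted p = 0.0222) and by 3.04 ± 0.48 at 12h (0.0161). At 12h TNIP1 rose by 2.55 ± 0.48 (adjusted p = 0.0209), NFKBIA by 1.96 ± 0.38 (0.0218), MAP3K8 by 1.89 ± 0.42 (0.0304) and TRAF3, a ubiquitin ligase that links receptors to interferon induction, by 1.33 ± 0.35 (0.0486). All 5 calls at 12h, and that of TNFAIP3 at 6h, were lost when pig 3 or pig 5 was left out, with adjusted p of 0.166 to 0.357 over these 2 fits, in which 0 genes of all tested were called in PD at either time; the log2 changes there were 1.18 to 3.59. Leaving out pig 4 also lost TNFAIP3 at 6h (0.114) and MAP3K8 and TRAF3 at 12h (0.0827 and 0.0809). Without the library of pig 2 at 12h the 5 calls at 12h held, at 3.41 for TNFAIP3, 2.26 for TNIP1, 1.89 for NFKBIA, 2.16 for MAP3K8 and 1.38 for TRAF3, with adjusted p of 0.00155 to 0.0153. TRAF3 lost its call with no filter on low counts (adjusted p = 0.0651). At 12h the median change was 0.26 log2 over the list and -0.05 over all genes tested.

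**Figure D5:**
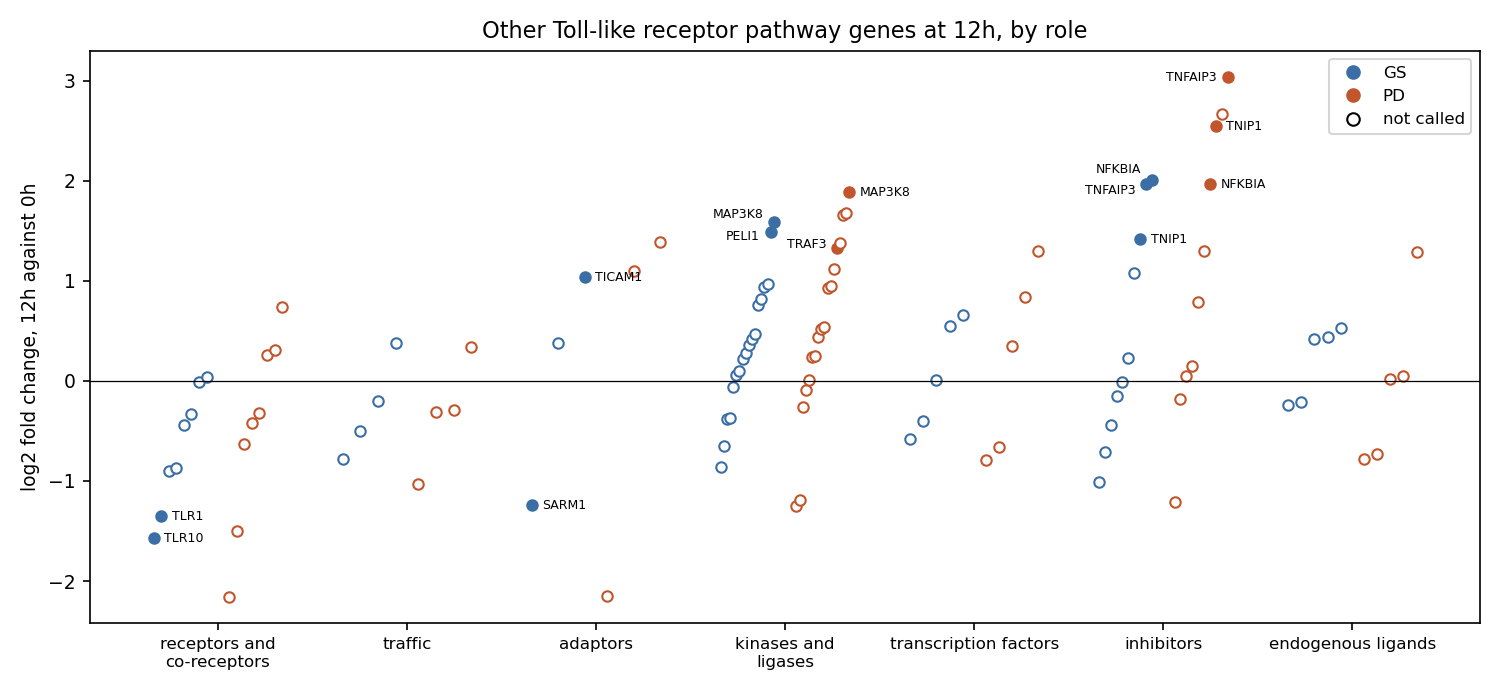
The log2 fold change at 12h against 0h of the 53 other pathway genes, grouped by role, in GS (blue) and PD (orange); filled points passed both thresholds and are named. The called inhibitors lie at 1.41 to 2.01 in GS and at 1.96 to 3.04 in PD, and the called receptors in GS at -1.57 and -1.35.

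The genes whose pattern lay nearest to each member were found from the 18 changes per gene (6h and 12h in each of 9 pigs), by the root mean square (RMS) difference in log2 CPM change over 13098 candidates. TLR4 lay nearest to TMED10 and SPTLC1, with RMS differences of 0.21 and 0.23, where the median over all candidates was 1.25. MYD88 lay nearest to BRWD1 and CDC42SE1 (0.20 and 0.20, median 0.995), TLR3 to TMEM68 and GGCX (0.30 and 0.31, median 1.20), TLR8 to NIPSNAP3B and ATM (0.30 and 0.32, median 1.28) and IRAK3 to IREB2 and MED1 (0.29 and 0.30, median 1.16). CD14, with the largest changes of its own, had more distant neighbours in MED9 and RNF126 (0.50 and 0.54, median 1.73). TLR2 lay nearest to NDUFB6 and ERH (0.29 and 0.29) and TLR5 to ZNF197 and TIMP4 (0.53 and 0.54). No member was among the 2 nearest genes of another.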

How the data were processed

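Whole-gene read counts of 27 lung biopsies (5 GS and 4 PD pigs at 0h, 6h and 12h) were analysed. The deposited table held raw counts that the authors made from stranded paired-end libraries, and the submitters' processing notes name bcl2fastq 2.2.18.12, cutadapt 1.15, TopHat2 2.0.14, Subread 1.6.0 with featureCounts, DESeq2 1.18.1 and the build Sscrofa11.1. The strand setting of the counting was not given in the sources used here. Every per-sample column was mapped to its sample by title, and 0 were left unused.

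Symbols came from the table, or for 782 genes without one from a reference table. Each group was fitted by edgeR 4.0.16 (R 4.3.3, quasi-likelihood, TMM, low counts filtered by filterByExpr) with the pig as a block, since the labels name the pig and the study used paired data. Residuals of samples of the same pig correlated at a mean of 0.513 in GS and 0.112 in PD. P-values were adjusted by Benjamini-Hochberg over all genes tested. CPM used TMM-scaled totals, and log2 CPM a prior count of 0.5. Changes were compared between groups by an exact Wilcoxon test on rlog values (DESeq2 1.42.0). The scripts were tested on simulated data. Lengths and start regions came from the RefSeq annotation of Sscrofa11.1. The named genes were the members, up to 5 called pathway genes per direction and comparison by fold change, and the 2 nearest genes per member. TICAM1 was named as well, beside SARM1.

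The members, lists and motifs were chosen with earlier results of these data known, and the NF-kB and ISRE letters were shortened by 1 base after matches had been seen. Alternatives were DESeq2, its size factors, no low-count filter, no pig block, one fit of all libraries, thinning to 14650700 counts, no fold threshold, other tests of the changes, other lengths and leaving out each pig. Leaving out the PD pig 2 library at 12h was added after seeing the data. Totals of 14650700 to 67522703 counts set the precision, and floors of 3 counts cover counting error only. The result of 1 marker gene is not reported here.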

Additional observations from a re-analysis of the deposited data

Results flagged for a closer look

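The IRAK3 level of PD pig 4 at 6h, 39.6 CPM, stood apart from the other 3 PD pigs at 6h, which had 19.5 to 21.3 CPM: its gap to the nearest took 0.879 of the range. It was the 1 such sample among 54 sets of 4 or 5 pigs looked at (8 members and the gene with the reference symbol TLR9, in 6 combinations of group and time), and chance alone marks about 1 set in 20.

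The change of CD14 from 0h to 6h was lower in PD than in GS by 0.66 on the rlog scale (difference -0.66, exact p = 0.0159, the smallest the design allows, adjusted p = 0.508), with every one of the 4 PD pigs below every one of the 5 GS pigs. Of all genes 3.13% were likewise without overlap, and 5.94% reached an unadjusted p under 0.05 in this exact Wilcoxon test. The difference did not pass the correction over all genes.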

How the results depend on the processing

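CD14 was called in GS at 6h and 12h in every fit run, and the 4 members that differed at 0h were called in every fit run. Across settings other than leaving out a pig, 404 single-gene values kept direction and side of the threshold, 7 lost their call, 11 gained one and 2 changed sign without having been called.

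Without a replicate block, that is without pairing samples by pig, 1123 genes in place of 2057 were called in GS at 6h and 1896 in place of 2911 at 12h, and 100 in place of 22 in PD at 6h and 1460 in place of 930 at 12h; the number of members called did not change, TLR10 lost its calls in GS and SARM1 its call at 12h, TLR4 at 12h, TLR8 at 6h and TLR3 at both times no longer had an adjusted p under 0.05 in GS, and the group-by-time difference of CD14 at 12h became 0.15. DESeq2 called 428 genes in PD at 6h, 2560 at 12h and 235 between 6h and 12h, 2 in GS between 6h and 12h, and 7 and 15 genes for the group-by-time term at 6h and 12h in place of 0, and among the members 1 in PD at 12h (CD14). One fit of all libraries called 1219 genes in GS at 6h, and in PD 479 at 6h, 3300 at 12h, 492 between 6h and 12h and 4 members at 12h, while TLR10 lost both calls in GS, and TLR4 at 12h and TLR3 and TLR8 at 6h their adjusted p. No low-count filter gave 103 genes in PD at 6h and ended the calls of TNFAIP3 in GS at 6h and TRAF3 in PD at 12h. With no fold threshold 3 members and 5295 genes passed in GS at 6h, and 4 and 7136 at 12h. An exact permutation of means gave 1758 and 1083 genes at an unadjusted p under 0.05 for the PD against GS changes at 6h and 12h in place of 1063 and 706, and log2 CPM in place of rlog turned the TLR8 difference at 12h to -0.21. Without the PD pig 2 library at 12h, 252 genes were called in PD at 6h, and 4161 genes and 1 member (IRAK3) at 12h. The cause of these shifts was not tested.

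Leaving out each pig in turn gave these ranges. Members called were 4 to 5 between the groups at 0h (5, with TLR4, without PD pig 4), 1 to 2 in GS at 6h (2 without pig 17) and 0 to 1 in PD at 12h (IRAK3 without pig 2); for the PD against GS changes those at an unadjusted p under 0.05 were 1 to 3 at 6h (2 if GS pig 9 was removed, 3 if PD pig 3 was) and 0 to 2 at 12h (1 if GS pig 17 or PD pig 4 was removed, 2, IRAK3 among them, if PD pig 2 was), and for the group-by-time term at 12h 0 to 1 (IRAK3 without PD pig 2, adjusted p = 0.0496). All genes called were 1318 to 2148 in GS at 6h (lowest without pig 44), 0 to 98 in PD at 6h (0 without pig 3, 4 or 5) and 0 to 3826 at 12h (none once pig 3 or 5 was removed, the most once pig 2 was), 662 to 2455 and 464 to 2968 at that unadjusted level for the PD against GS changes at 6h and 12h (lowest once GS pig 77 was removed, highest once PD pig 3 was at 6h and PD pig 2 at 12h), and 0 to 254 (6h) and 0 to 153 (12h) for the group-by-time term, both maxima of that term with PD pig 2 removed. Uncalled values that crossed 0 were IRAK3 in GS at 6h (-0.23 to 0.073) and 12h (-0.062 to 0.12), TLR2 in GS at 12h (-0.11 to 0.25) and in PD at 6h (-0.23 to 0.18), MYD88 (-0.012 to 0.39), TLR5 (-0.16 to 0.50) and TLR8 (-0.028 to 0.37) in PD at 6h, TLR3 at 0h (-0.0070 to 0.37), the PD against GS changes at 12h of CD14 (-0.55 to 0.18) and TLR8 (-0.23 to 0.22), and the group-by-time difference of CD14 at 12h (-0.82 to 0.28).

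Lengths moved the levels in GS at 0h. TLR2 went to 6.87 RPKM by its longest transcript, and by coding length TLR2 came to 12.5, TLR4 to 41.6, TLR5 to 1.75, TLR8 to 14.9 and IRAK3 to 21.0 RPKM. Thinning to one depth was run for the 0h and group-by-time comparisons and changed no call of a member there; the part of depth in the PD changes was not tested.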
